A study of Homo sapiens with 32 samples.

Results

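Antisense RNAs are transcripts made from the DNA strand opposite to another gene. The set described here holds the 300 antisense RNAs with the highest mean level over 32 polysomal RNA-Seq libraries of 2 human breast cell lines. Of 60554 gene entries, 5564 carried the biotype antisense, 4001 of them had at least 1 count, and 380 reached a mean of 1 CPM (a gene's count scaled to a library total of 1000000). The small RNA hosts ZFAS1, SNHG7, SNHG12, SNHG10 and SNHG21 were left out by name, which left 375, and the 300 highest were kept. The members were therefore chosen by their mean CPM over all libraries, and their overall levels are given as a description. The last members kept were RP11-360L9.8 at a mean of 1.428 CPM, RP11-307C12.11 at 1.421 CPM and RP11-217B1.2 at 1.408 CPM. Just outside were CTD-3074O7.5 at 1.395 CPM, RP11-792A8.4 at 1.393 CPM and PCAT6 at 1.389 CPM.

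The lines were MCF10A, an immortalised and non-tumourigenic line from breast epithelium, and MDA-MB-231, a triple-negative breast cancer line. Each was kept in normoxia with vehicle (N), in hypoxia at 0.5% O2 for 24 hours with vehicle (H), in normoxia with 2.5 µM PP242 for 3 hours (NPP), or in hypoxia with PP242 (HPP). PP242 inhibits mTOR complexes 1 and 2, kinases that promote the initiation of translation. From every condition total RNA (T) and the RNA of the polysomal fractions of a sucrose gradient (P) were sequenced after poly(A) selection, in 2 biological replicates, which gave 8 groups per line. The comparisons address which RNAs change in hypoxia, with and without mTOR inhibition, and which are bound to polysomes. All libraries of a line come from that one line, so the replicates measure the spread between cultures and preparations, and a change in bulk RNA cannot separate fewer cells of a kind from less RNA per cell.

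The label of each line was compared with marker genes. MCF10A libraries had the basal keratins KRT5 (median 1840 CPM over 16 libraries), KRT14 (1610 CPM) and KRT17 (210 CPM), which were at or below 5.96 CPM in MDA-MB-231. The epithelial and basal markers CDH1, EPCAM, TP63 and DSG3 were near 0 in MCF10A, with medians of 0.0831, 0.289, 0.0368 and 0.245 CPM. In the same libraries the mesenchymal genes VIM and SPARC had medians of 2780 and 125 CPM, and DCN ranged from 69.4 to 257 CPM. The MCF10A libraries therefore went against part of an epithelial profile. MDA-MB-231 libraries had VIM (3770 CPM), CD44 (674 CPM), AXL (829 CPM) and ZEB1 (58.8 CPM), with ESR1 and PGR at medians of 0.146 and 0.228 CPM. SPARC was near 0 in MDA-MB-231, with a median of 0.324 CPM and at most 0.763 CPM, against a mesenchymal profile. EPCAM, at a median of 12.3 CPM, was higher there than in MCF10A. KRT14 in MCF10A had a median of 821 CPM in the 8 normoxic and 2750 CPM in the 8 hypoxic libraries, KRT17 had 120 and 471 CPM, and KRT6A had 27.9 and 163 CPM, with no overlap between the libraries. KRT5, at 1670 and 2000 CPM, overlapped. The part of these keratins in the results below was not tested.

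Library totals ran from 18340916 to 46032327 counts (median 34561484), so that 1 CPM stood for 18.3 to 46.0 counts. Between 288 and 299 of the 300 members had a count in each library, and together they held 0.15% to 0.289% of the counts (median 0.225%). Replicates of all 16 groups differed by more than sampling noise, which is no finding in itself for separate cultures, and the gaps are given as a description. The widest gap was between the MCF10A NPP T libraries, with a chi-square per gene of 401, followed by MCF10A N P at 264, H P at 233 and HPP T at 221. MDA-MB-231 groups lay between 18.2 and 71.8. The MCF10A fit had a biological coefficient of variation of 0.349, against 0.161 for MDA-MB-231.

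Antisense transcripts can share bases with the RNA of the gene on the other strand, can start from the same bidirectional promoter as that gene, or can lie inside it. Some act in cis on their partner, some form duplexes with its RNA, and for many no role is known. Low oxygen stabilises HIF proteins, which bind a short core (ACGTG or GCGTG) beside hypoxia-inducible genes. Non-coding RNAs are found on ribosomes less often than messenger RNAs, which is the property that a polysomal fraction reads.

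Placing the members on GRCh38 with GENCODE release 44 matched 291 by gene identifier. Of these, 253 shared exon bases with an opposite-strand gene, 13 overlapped only the body of such a gene, and 25 overlapped none. The median share of a member's exon bases that lay on an opposite-strand exon was 16.4%, and 27 members lay wholly on one. A coding gene started on the other strand within 1000 bases of the start of 132 members. The later release classes 281 as lncRNA, 6 as protein_coding and 4 as a pseudogene. The libraries were made with the TruSeq RNA Sample Prep Kit v2, which does not mark the strand, so over shared bases the reads of a member and of an opposite-strand gene cannot be told apart, and 38 members also shared exon bases with a gene of the same strand.

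Promoters of 4 members called higher in hypoxia (below) are shown, because low oxygen acts through a short DNA core. Each is RefSeq sequence on GRCh38.p14, from 250 bases before to 50 bases after the annotated start, read 5′ to 3′ on the strand of the antisense RNA. Capitals mark each match to ACGTG or GCGTG on either strand (CACGT or CACGC when read on the strand shown). The windows are AC093818.1 (named PDK1-AS1 in RefSeq) at chr2:172556415-172556714 on the minus strand, RP11-798M19.6 (SAP30-DT) at chr4:173370649-173370948 on the minus strand, MZF1-AS1 at chr19:58558936-58559235 on the plus strand, and DLGAP1-AS1 at chr18:3593864-3594163 on the plus strand.
AC093818.1: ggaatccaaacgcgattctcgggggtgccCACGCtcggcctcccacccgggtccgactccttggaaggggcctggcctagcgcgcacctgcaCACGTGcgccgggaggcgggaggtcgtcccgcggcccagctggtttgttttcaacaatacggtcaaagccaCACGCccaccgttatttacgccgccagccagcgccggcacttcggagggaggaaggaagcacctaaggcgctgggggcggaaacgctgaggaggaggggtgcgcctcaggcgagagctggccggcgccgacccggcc
RP11-798M19.6: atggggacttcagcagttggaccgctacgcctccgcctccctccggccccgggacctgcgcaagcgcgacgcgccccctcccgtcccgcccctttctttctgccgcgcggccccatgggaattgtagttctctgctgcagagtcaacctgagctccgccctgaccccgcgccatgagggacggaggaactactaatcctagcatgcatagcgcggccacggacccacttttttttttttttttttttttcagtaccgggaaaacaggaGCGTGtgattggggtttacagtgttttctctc
MZF1-AS1: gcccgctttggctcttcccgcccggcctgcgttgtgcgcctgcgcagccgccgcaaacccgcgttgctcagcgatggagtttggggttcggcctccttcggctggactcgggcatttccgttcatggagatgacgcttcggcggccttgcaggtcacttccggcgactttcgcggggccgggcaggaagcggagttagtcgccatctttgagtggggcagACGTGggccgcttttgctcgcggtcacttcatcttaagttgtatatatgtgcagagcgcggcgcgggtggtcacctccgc
DLGAP1-AS1: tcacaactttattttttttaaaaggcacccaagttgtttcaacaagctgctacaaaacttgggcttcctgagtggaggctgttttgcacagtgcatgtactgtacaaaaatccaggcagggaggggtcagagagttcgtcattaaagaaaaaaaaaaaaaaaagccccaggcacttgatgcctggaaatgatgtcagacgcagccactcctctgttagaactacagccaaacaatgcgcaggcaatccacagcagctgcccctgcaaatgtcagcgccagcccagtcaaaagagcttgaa

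The AC093818.1 window held 4 matches, of which the pair in CACGTG overlap, the RP11-798M19.6 and MZF1-AS1 windows held 1 each, and these letters were not in the DLGAP1-AS1 window, whose start lies 382 bases from that of GENCODE release 44. Of all 35116 promoter windows of this length in the table, 48.4% held the core. Among 163 members with a window the share was 63.2%. It was 70.0% (7 of 10) for members called higher in any H comparison, 69.4% (25 of 36) for those called higher in any HPP comparison and 93.8% (15 of 16) for those called lower in any HPP comparison. The shares of members that rose were thus near that of all members with a window. For 14 of the 163 members the window's start lay more than 1000 bases from that of release 44 (at most 97443), among them RP11-392P7.6 (52125 bases) and NRSN2-AS1 (23238 bases) of the 10. Without these windows the shares were 65.8% of 149 members, 75% (6 of 8), 69.7% (23 of 33) and 93.3% (14 of 15). DARS-AS1 had no window in the table.

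Levels were uneven among the members. The median of their mean levels was 2.99 CPM, 38 members averaged at least 10 CPM, and the 3 highest held 22.9% of all counts in the set. The 10 highest held 37.5%. They were RP11-386G11.10 with a mean of 204 CPM, RP11-161H23.5 with 176, RP5-940J5.9 with 106.4, FGD5-AS1 with 78.4, TUG1 with 65.9, RP11-138I1.4 with 46.0, THAP9-AS1 with 39.2, PSMA3-AS1 with 33.7, HCG18 with 32.02 and RP11-149I23.3 with 31.3 CPM. Per kilobase of exon the order differed: RP11-161H23.5 had 258 and RP5-940J5.9 252 CPM per kilobase, RP11-138I1.4 had 99.7, SVIL-AS1 99.3 and RP11-386G11.10 44.2, whereas FGD5-AS1 had 13.0 and TUG1 6.49. The value of SVIL-AS1 rests on an exon length of 122 bases, as GENCODE release 44 gives it for a pseudogene under the same identifier.

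Of the 10 members with the highest mean CPM, the 4 highest per kilobase lie across abundant housekeeping genes. RP5-940J5.9 (chr12:6537794-6538370, minus strand) lies wholly on exons of GAPDH, the glycolytic dehydrogenase, and RP11-138I1.4 (chr17:16382152-16382669, minus strand) wholly on UBB, a ubiquitin gene. RP11-161H23.5 shares 97.9% of its exon bases with opposite-strand exons, chiefly of TUBA1C, and RP11-386G11.10 shares 35.5%, chiefly with TUBA1B, both genes of alpha-tubulin. The counts of RP5-940J5.9 were 1.12% to 1.39% of those of GAPDH in the 8 MCF10A T libraries and 0.937% to 1.10% in the 8 MDA-MB-231 T libraries. The counts of RP11-138I1.4 were 2.96% to 4.21% of those of UBB in MCF10A T and 2.52% to 3.23% in MDA-MB-231 T. GAPDH itself ranged over all libraries far more widely than these percentages did, so RP5-940J5.9 followed GAPDH library by library, and how many of its reads come from either strand was not tested. For RP11-386G11.10 the percentage of TUBA1B was less even, with medians of 7.93% in MCF10A T and 2.10% in MDA-MB-231 T.

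The lines differed most in a minority of members. A mean of at least 1 CPM in both lines was found for 256 members, in MCF10A alone for 14 and in MDA-MB-231 alone for 30. All 16 MDA-MB-231 libraries lay above all 16 MCF10A libraries for 35 members (11.7%; 16.8% of all 13559 genes with a mean of at least 1 CPM), and the reverse held for 14 (4.67%; 6.80% of those genes). The libraries overlapped for 251 members, so the lines stood apart for a smaller share of the members than of these genes. These levels are a description, since the mean over both lines chose the members. The counts of each line were also deposited as a separate set, so line and set cannot be told apart.

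Members high in MDA-MB-231 were led by RP11-149I23.3, antisense to the lysosomal lipase gene LIPA, with 20.7 to 177 CPM (median 58.5) against 0.00 to 0.627 CPM in MCF10A. AFAP1-AS1 had 24.9 to 48.0 CPM against at most 0.170 CPM. SLCO4A1-AS1 had 6.77 to 29.6 CPM against at most 0.216 CPM, and HAGLR, a transcript of the HOXD cluster, 5.88 to 27.1 CPM against at most 0.201 CPM. In the other direction, RP3-416H24.1 had 4.66 to 47.6 CPM in MCF10A against 0.209 to 1.58 CPM. CADM3-AS1 had 6.70 to 23.2 CPM against at most 0.0582 CPM. HOTAIRM1, from the HOXA cluster, had 1.14 to 10.4 CPM against at most 0.0253 CPM, and HOXC13-AS 1.02 to 8.36 CPM against at most 0.0545 CPM. Of the 3 members from HOX clusters, HAGLR was thus near 0 in MCF10A, and HOTAIRM1 and HOXC13-AS in MDA-MB-231.

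**Figure D1:**
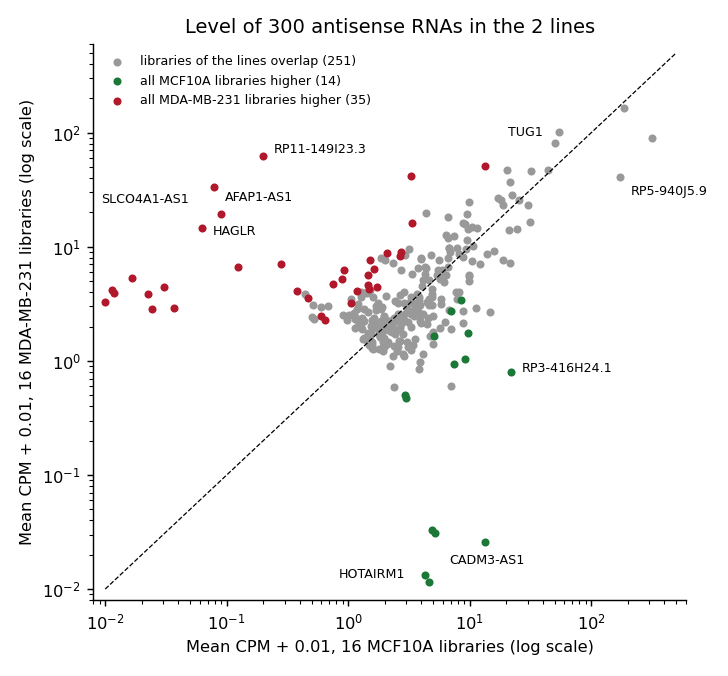
Mean CPM plus 0.01 of each of the 300 antisense RNAs over the 16 MCF10A libraries (horizontal) and the 16 MDA-MB-231 libraries (vertical), both on log scales, with the line of equal levels dashed. Most points lie along the line, and the 35 red and 14 green points are members whose libraries do not overlap between the lines.

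Polysomal RNA was compared with total RNA in normoxia to ask which antisense RNAs were found on polysomes. In MDA-MB-231, 97 of 295 members tested were lower in P than in T and 6 were higher by the edgeR quasi-likelihood test. Lower calls thus covered 32.9% of members, against 9.66% of all 16995 genes tested, and higher calls 2.03% against 6.15%. The median log2 difference of P over T was -0.47 for the members, -0.04 for all genes, 0.02 for protein-coding genes and -0.57 for lincRNAs, another non-coding class. Both P libraries lay below both T libraries for 180 members (61.0%; 37.9% of all genes). Of all 1092 antisense rows tested in this line, members included, 17.2% were lower and 0.641% higher.

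In MCF10A the median was -0.55 for the members, 0.02 for all genes and -0.70 for lincRNAs. Both P libraries lay below both T libraries for 198 of 289 members (68.5%; 33.3% of all genes). The edgeR test called 0 members and 0.00% of all 16723 genes there. At an unadjusted p under 0.05 it gave 12 members higher and 66 lower (4.15% and 22.8%; 9.94% and 5.92% of all genes). DESeq2 called 1 higher and 25 lower (0.346% and 8.65%; 0.999% and 1.49% of all genes). A replicate block within each fraction, which pairs the MCF10A T libraries, called 3 higher and 26 lower (1.04% and 9.0%; 2.10% and 2.00% of all genes). With any 1 N library of T or P left out, the MDA-MB-231 count of members called fell by more than 1.5 times. The share of all genes called in those fits is not given, so no direction is read from them.

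The sample titles number the T and P libraries of a replicate alike, which pairs the fractions. With these numbers as a block, 113 members were called in MDA-MB-231, 98 of them among those reported. Calls were higher for 1.69% and lower for 36.6% of members, against 5.11% and 10.4% of all genes. In MCF10A the block called 0 members, and 0.00% of all genes higher and 0.00598% lower.

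ENSG00000223478.1 (ZDHHC12-DT in GENCODE release 44; chr9:128724435-128733199, plus strand) had the largest fall among members called. Its 2 MDA-MB-231 P libraries had 1.84 and 1.63 CPM and its T libraries 13.6 and 14.2 CPM, a log2 difference of -2.89 (SE 0.30, adjusted p = 0.000108 in the edgeR test). In MCF10A, P had 0.502 and 0.282 CPM and T 4.14 and 3.44 CPM (-2.92, SE 0.82, adjusted p = 0.192). The fractions did not overlap in either line.

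CAPN10-AS1, which starts beside the calpain gene CAPN10, had 0.409 and 0.523 CPM in MDA-MB-231 P and 3.45 and 2.62 CPM in T (-2.57, SE 0.39, adjusted p = 0.00115). STAM-AS1, beside the endosomal sorting gene STAM, had 0.531 and 0.523 CPM in P and 2.60 and 2.94 CPM in T (-2.27, SE 0.39, adjusted p = 0.00264). NFYC-AS1, beside a subunit gene of the CCAAT-binding factor, fell by 2.37 on the log2 scale (adjusted p = 0.000900), and RP11-350J20.12 by 2.67 (adjusted p = 0.000268). Each of these had both P libraries below both T libraries. FGD5-AS1, the fourth most abundant member, also fell, from 157 and 127 CPM in T to 55.5 and 56.4 CPM in P (-1.23, SE 0.18, adjusted p = 0.000937). TUG1 did not pass the test (92.8 and 94.1 CPM in T, 61.1 and 90.0 CPM in P, -0.20, adjusted p = 0.518), although neither P library reached a T library.

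The 6 members called higher in P of MDA-MB-231 share at least 97.9% of their exon bases with an opposite-strand exon. RP11-138I1.4 had 65.0 and 52.2 CPM in P and 33.3 and 32.1 CPM in T (0.96, SE 0.20, adjusted p = 0.00697), and its partner UBB differed by 0.80 (adjusted p = 0.00891). RP5-940J5.9 differed by 0.77 (SE 0.14, adjusted p = 0.00390) and GAPDH by 0.59 (adjusted p = 0.0141). The others were RP11-746M1.1 on USP22 (1.29, adjusted p = 0.0268), RP11-498C9.3 on ARHGDIA (1.03, adjusted p = 0.0473), RP11-805J14.5 on FADD (0.89, adjusted p = 0.0396) and RP11-161H23.5 on TUBA1C (0.88, adjusted p = 0.0476). With the block on the numbers shared by T and P, RP11-498C9.3 (adjusted p = 0.0797), RP11-805J14.5 (adjusted p = 0.0555) and RP11-161H23.5 (adjusted p = 0.0854) were not called. Of their coding partners, UBB, GAPDH, ARHGDIA and FADD were called higher in P as well, and TUBA1C (0.42, adjusted p = 0.0711) and USP22 (0.52, adjusted p = 0.0595) were not.

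The difference between fractions followed the share of exon bases on opposite-strand exons. In MDA-MB-231 the median log2 difference was -0.74 for 38 members with no shared base, -0.72 for 70 with under 10%, -0.51 for those with 10% to under 50%, and 0.15 for 66 with at least 50%. Lower calls fell from 18 of 38 (47.4%) and 28 of 70 (40.0%) to 38 members (33.9%) and 10 of 66 (15.2%) across these classes. In MCF10A the medians were -0.98, -0.66, -0.62 and 0.34. The median of the class with at least 50% thus lay above that of all genes and the other medians below it, in both lines, although in MDA-MB-231 this class had 10 members called lower and 6 called higher. Members with a coding start on the other strand within 1000 bases were lower in 51 of 130 cases (39.2%, median -0.61) in MDA-MB-231, and those without in 43 of 156 (27.6%, median -0.42). How far reads of the partner enter the first of these gradients was not tested.

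**Figure D2:**
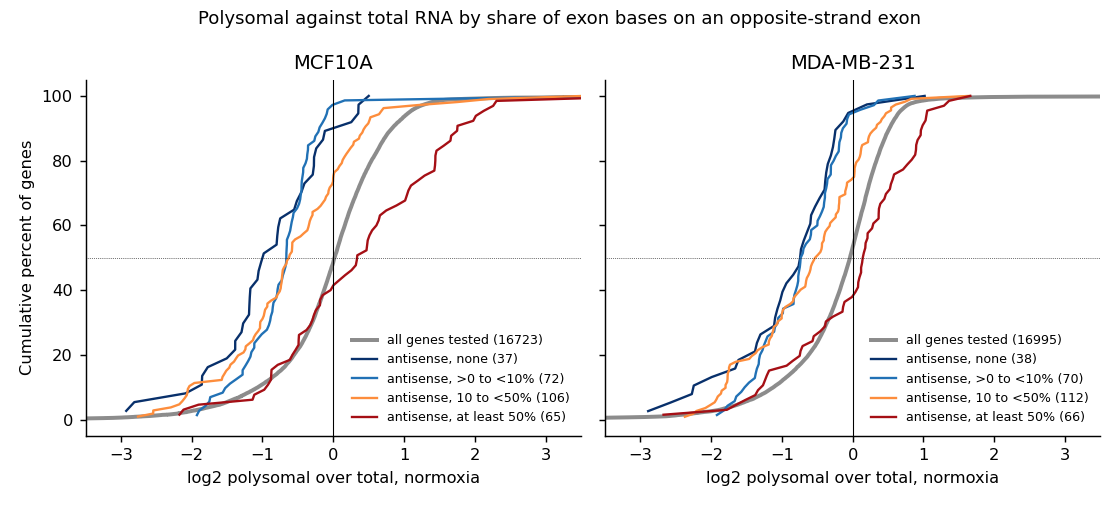
Cumulative percent of genes (vertical) against the log2 ratio of polysomal over total RNA in normoxia (horizontal) for all genes tested (grey) and for antisense RNAs in 4 classes of exon sharing with the opposite strand, per line. The curves of the 3 classes under 50% run to the left of all genes, and the red curve of members at 50% or more crosses the midline at 0.34 in MCF10A and 0.15 in MDA-MB-231.

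Hypoxia alone raised few members and lowered none that passed the test. In T, 4 of 289 members rose in MCF10A (1.38%; 1.06% of all genes rose) and 5 of 295 in MDA-MB-231 (1.69%; 0.871% of all genes). In P, 5 rose in MCF10A (1.73%; 1.00% of all genes) and 11 in MDA-MB-231 (3.73%; 1.55% of all genes). Of all genes, 0.0837% and 0.188% fell in T, and 0.102% and 0.359% in P, in MCF10A and MDA-MB-231. At an unadjusted p under 0.05 the edgeR test gave 22 members higher and 5 lower in MCF10A T (7.61% and 1.73%; 6.67% and 3.52% of all genes) and 29 and 12 in MDA-MB-231 T (9.83% and 4.07%; 6.75% and 5.43% of all genes). In P it gave 22 and 7 in MCF10A (7.61% and 2.42%; 6.59% and 5.23% of all genes) and 58 and 5 in MDA-MB-231 (19.7% and 1.69%; 10.1% and 6.37% of all genes). DESeq2 called 0 and 1 members lower in T (0.670% and 0.683% of all genes) and 1 and 0 in P (1.06% and 1.85% of all genes), in MCF10A and MDA-MB-231. In total 14 of 300 members (4.67%) rose in at least 1 of the 4 comparisons, against 2.31% of all genes, and none fell, against 0.511%. Of all antisense rows tested, members included, 0.688% of those of MCF10A rose in T and 0.774% in P. In MDA-MB-231 the shares were 0.641% and 1.28%, and each was below that of all genes. Of the same antisense rows 0.275% fell in T of MDA-MB-231, above the 0.188% of all genes, and 0.00% in the other H comparisons.

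DARS-AS1, AC093818.1 and RP11-798M19.6 rose in T of both lines. DARS-AS1 (chr2:135985124-136022593, plus strand) starts beside DARS, which encodes aspartyl-tRNA synthetase. In MCF10A T it had 1.21 and 1.25 CPM in N and 7.35 and 7.08 CPM in H (2.61, SE 0.50, adjusted p = 0.0299). In MDA-MB-231 T it had 0.404 and 0.382 CPM in N and 2.24 and 1.71 CPM in H (2.41, SE 0.33, adjusted p = 0.00159). Every hypoxic library lay above every normoxic one of its line and fraction, and the P differences were 2.54 (adjusted p = 0.0391) and 3.02 (adjusted p = 0.00127).

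AC093818.1 (chr2:172480840-172556596, minus strand) lies across PDK1, whose kinase limits the entry of pyruvate into mitochondria and is a known hypoxia target. It had 1.52 and 1.67 CPM in N and 7.76 and 8.43 CPM in H in MCF10A T (2.41, SE 0.51, adjusted p = 0.0444). In MDA-MB-231 T it had 2.02 and 1.36 CPM in N and 10.2 and 11.2 CPM in H (2.74, SE 0.37, adjusted p = 0.00122). Groups did not overlap in either line. It was low in P, at 0.195 and 0.435 CPM in N of MCF10A and 0.572 and 0.369 CPM in N of MDA-MB-231, where it rose to 1.43 and 3.94 CPM in H (2.51, SE 0.43, adjusted p = 0.00726) and P against T fell by 1.77 on the log2 scale (adjusted p = 0.0183).

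RP11-798M19.6 (chr4:173349543-173370721, minus strand) starts beside SAP30, which encodes a subunit of a histone deacetylase complex. It had 3.57 and 3.28 CPM in N and 12.5 and 11.4 CPM in H in MCF10A T (1.87, SE 0.39, adjusted p = 0.0443). In MDA-MB-231 T it had 5.83 and 4.91 CPM in N and 11.8 and 15.4 CPM in H (1.43, SE 0.21, adjusted p = 0.00223). The hypoxic libraries were the higher ones throughout, in P as well as in T, and the P differences were 1.89 (adjusted p = 0.0443) and 1.49 (adjusted p = 0.00195).

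RP11-268J15.5 rose in MCF10A T, from 1.60 and 1.14 CPM to 15.9 and 6.50 CPM (3.05, SE 0.57, adjusted p = 0.0263), with the H replicates far apart, and had no match in GENCODE release 44. In MCF10A P it rose from 0.753 and 0.782 to 5.48 and 5.77 CPM (2.82, SE 0.58, adjusted p = 0.0414). MZF1-AS1, beside the zinc finger gene MZF1, rose in MDA-MB-231 T from 2.02 and 1.58 CPM to 4.48 and 3.83 CPM (1.28, SE 0.25, adjusted p = 0.0194) and in P from 0.940 and 0.739 to 3.27 and 3.94 CPM (2.10, SE 0.26, adjusted p = 0.000886). DLGAP1-AS1 rose in MDA-MB-231 T from 3.67 and 3.33 CPM to 7.08 and 6.69 CPM (1.06, SE 0.20, adjusted p = 0.0186) and in P from 2.90 and 2.19 to 7.47 and 6.93 CPM (1.50, SE 0.21, adjusted p = 0.00174). In MCF10A T it had 1.80 and 1.35 CPM in N and 1.91 and 1.79 CPM in H, which the test did not call. The remaining calls were RP5-1120P11.1 and NR2F2-AS1 in MCF10A P, and HAGLR, PPP1R14B-AS1 (the release 44 name of ENSG00000256940.1), RP11-392P7.6, NRSN2-AS1, RP11-93B14.9 and MIF-AS1 in MDA-MB-231 P.

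Most of these counts changed when a library was left out. In MCF10A T, 0 members were called without N replicate 1, without H replicate 1 or without N replicate 2, and 1 without H replicate 2. In MCF10A P, 0 were called without N replicate 1, H replicate 1 or N replicate 2, and 4 without H replicate 2. In MDA-MB-231 T the count was 3 without N replicate 1, H replicate 1 or H replicate 2 and 2 without N replicate 2, and in P it was 5 without N replicate 1, 4 without N replicate 2, 11 without H replicate 1 (7 of them among the 11 reported) and 5 without H replicate 2, of which 1 was a fall. Blocking on the replicate number within each fraction, which pairs the MCF10A T libraries, gave 8 members higher and 0 lower in MCF10A T (2.77% and 0.00%; 2.09% and 0.389% of all genes). A block over all libraries of the line kept 2 of the 4 calls in MCF10A T, and scaling by the library total also kept 2. The MCF10A T call thus did not hold in these fits for every member said to rise in both lines.

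**Figure D3:**
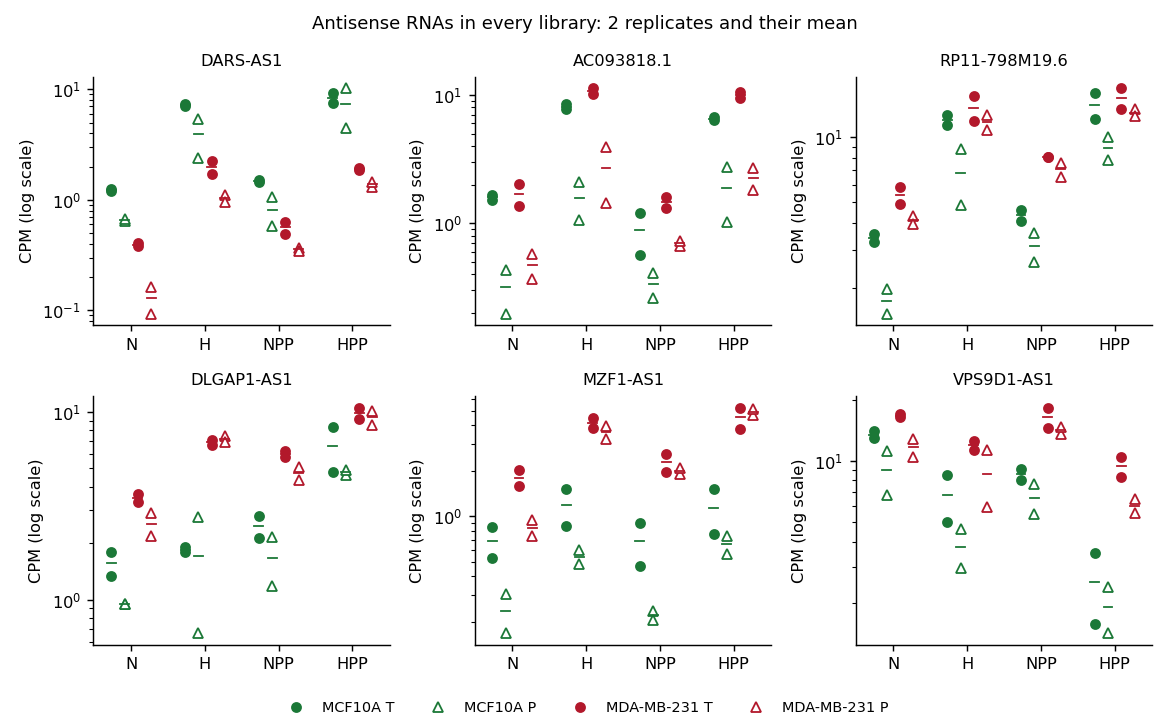
CPM (log scale) of 6 antisense RNAs in each library by condition, with filled circles for T, open triangles for P, green for MCF10A and red for MDA-MB-231, and a bar at the mean of the 2 replicates. DARS-AS1, AC093818.1 and RP11-798M19.6 stand higher in H and HPP than in N and NPP in both lines, whereas VPS9D1-AS1 is lowest in HPP.

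Hypoxia with PP242 (HPP) changed more members. In T, 20 of 289 rose and 12 fell in MCF10A (6.92% and 4.15%; 5.88% and 6.14% of all genes), and 28 of 295 rose and 6 fell in MDA-MB-231 (9.49% and 2.03%; 5.90% and 4.50% of all genes). In P, 25 rose and 15 fell in MCF10A (8.65% and 5.19%; 8.16% and 10.6% of all genes), and 39 rose and 10 fell in MDA-MB-231 (13.2% and 3.39%; 8.86% and 8.19% of all genes). In this fit rises were thus near the background in MCF10A and above it in MDA-MB-231, and falls were below the background in all 4 comparisons. The statement on rises holds for the 300 members and not for antisense rows at large: of all those tested, members included, 4.13% of those of MCF10A rose in T and 5.59% in P. In MDA-MB-231 the shares that rose were 4.03% and 6.78%, and each was below that of all genes. Among lincRNAs 8.40% rose in T and 10.8% in P of MCF10A, both above all genes. In MDA-MB-231 4.62% of lincRNAs rose in T, below all genes, and 9.23% in P, above them. Falls were below the background among all antisense rows too, at 1.63% in T and 2.24% in P of MCF10A and 1.28% and 1.65% in MDA-MB-231, and among lincRNAs, at 1.04%, 1.50%, 0.947% and 1.54% in the same order. Median log2 changes of the members were 0.13 in T and 0.01 in P in MCF10A (all genes -0.01 and -0.04), and 0.20 and 0.21 in MDA-MB-231 (all genes 0.00 and 0.05).

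**Figure D4:**
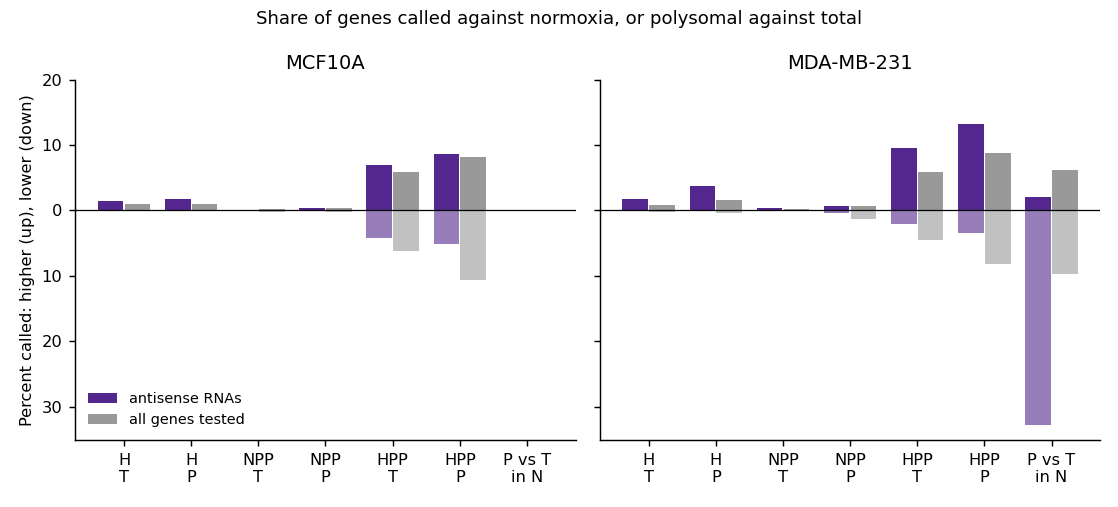
Percent of antisense RNAs (purple) and of all genes tested (grey) called higher (upward bars) and lower (downward bars) against normoxia in each fraction, and for polysomal against total RNA in N, per line. The downward bar of 32.9% for polysomal against total RNA in MDA-MB-231 is the tallest, against 9.66% for all genes.

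Some members were called in both lines. In T, 8 members rose in both (40.0% of the MCF10A list and 28.6% of the MDA-MB-231 list): DARS-AS1, AC093818.1, RP11-798M19.6, RP11-268J15.5, DLGAP1-AS1, VIM-AS1, SBF2-AS1 and NOP14-AS1. TMEM147-AS1 and RP11-132A1.4 fell in both (16.7% and 33.3%). In P, 17 rose in both (68.0% and 43.6%) and 4 fell in both (26.7% and 40.0%). None was called in opposite directions in the lines. For all genes called, the shared lists made up 36.9% and 36.2% of those that rose in T, 30.8% and 41.3% of those that fell in T, 37.8% and 34.3% of those that rose in P, and 45.1% and 57.5% of those that fell in P. Sharing among members was lower than these shares for falls in both fractions, higher for rises in P, and for rises in T higher as a share of the MCF10A list and lower as a share of the MDA-MB-231 list. Over both fractions and lines 57 members (19.0%) rose and 27 (9.0%) fell in at least 1 HPP comparison, against 14.2% and 14.7% of all genes, and RP5-940J5.9 did both.

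Among the risers, DARS-AS1 reached 9.30 and 7.55 CPM in MCF10A HPP T (2.98, SE 0.51, adjusted p = 0.00353) and 1.85 and 1.94 CPM in MDA-MB-231 HPP T (2.33, SE 0.33, adjusted p = 0.000806), close to its levels in H. DLGAP1-AS1 stood at 4.79 and 8.34 CPM in MCF10A HPP T (2.33, SE 0.63, adjusted p = 0.0336) and at 9.19 and 10.5 CPM in MDA-MB-231 (1.56, SE 0.20, adjusted p = 0.000414). In MCF10A it thus passed the test with PP242 in hypoxia and not in hypoxia alone, a difference that was not itself tested.

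NOP14-AS1, beside a gene for assembly of the small ribosomal subunit, rose from 16.7 and 18.1 CPM to 36.4 and 71.9 CPM in MCF10A T (1.91, SE 0.42, adjusted p = 0.0138) and from 20.6 and 22.3 CPM to 32.6 and 45.2 CPM in MDA-MB-231 T (0.92, SE 0.18, adjusted p = 0.00639). RP11-93B14.9 (SLCO4A1-AS2 in release 44) had the largest rise in MCF10A T, from 0.253 and 0.228 CPM to 1.27 and 2.46 CPM (3.21, SE 0.54, adjusted p = 0.00315). ZEB1-AS1 rose in MDA-MB-231, in T from 7.30 and 6.22 to 12.7 and 14.5 CPM (1.08, adjusted p = 0.0108) and in P from 2.37 and 3.11 to 8.24 and 10.4 CPM (1.61, adjusted p = 0.000629). It had 6.55 and 5.52 CPM in N and 7.85 and 7.47 CPM in HPP in MCF10A T and was not called there.

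Falls were led in MCF10A by VPS9D1-AS1, with 14.0 and 12.9 CPM in N and 3.49 and 1.57 CPM in HPP T (-2.24, SE 0.40, adjusted p = 0.00473). In MDA-MB-231 T it had 16.4 and 17.0 CPM in N and 8.28 and 10.5 CPM in HPP (-0.76, SE 0.23, adjusted p = 0.0516), and in P it fell by 1.11 on the log2 scale (adjusted p = 0.00624). DLEU2, the host transcript of a microRNA cluster on chromosome 13, fell in MDA-MB-231 T from 15.9 and 17.3 CPM to 6.18 and 6.39 CPM (-1.33, SE 0.25, adjusted p = 0.00524). RP11-132A1.4 fell in T of both lines, from 3.97 and 3.15 to 1.48 and 1.16 CPM in MCF10A (-1.21, adjusted p = 0.0246) and from 4.25 and 4.31 to 1.34 and 1.42 CPM in MDA-MB-231 (-1.56, adjusted p = 0.00479). None of the compared libraries overlapped for these members. RP11-1100L3.7, 94.9% of which lies on ATG101, had 83 and 69 counts in MDA-MB-231 N T and 0 in both HPP T libraries, at least 38.4-fold lower against a floor of 3 counts per library. It was also at 0 in other MDA-MB-231 libraries, and the floor covers counting error only.

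Each HPP count fell when a library was left out. In MCF10A T, 3 members rose and 2 fell without N replicate 1, 17 rose and 2 fell without HPP replicate 1, 0 rose and 2 fell without N replicate 2, and 7 rose and 1 fell without HPP replicate 2. All 20 rises were thus lost with N replicate 2 out. A block on the replicate number within each fraction gave 37 higher and 21 lower (12.8% and 7.27%; 9.51% and 12.4% of all genes). In MCF10A P, 7 rose and 2 fell without N replicate 1, 9 rose and 14 fell without HPP replicate 1, 14 rose and 16 fell without N replicate 2, and 14 rose and 3 fell without HPP replicate 2. The order of rises and falls in MCF10A P was not set against that of all genes in the same fits. The MDA-MB-231 counts fell in T and in P with each library left out, over the ranges given in the last section. Shares of all genes in these fits are not given, so no direction is read from the counts. Scaling by the library total moved the median of all genes by -0.21 in T and 0.21 in P of MCF10A and gave 31 higher and 10 lower in MCF10A P, beside 25 and 15. All genes share that move, so the shift in calls cannot be read as one of the members.

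PP242 in normoxia (NPP) changed few members. In MCF10A T 0 of 289 were called by edgeR (0.395% of all genes) and 0 by DESeq2 (0.909% of all genes higher and 0.879% lower). At an unadjusted p under 0.05 the edgeR test gave 12 higher and 5 lower (4.15% and 1.73%; 4.11% and 4.20% of all genes). In MCF10A P, RP11-326K13.4 alone rose (0.568% of all genes were called), from 0.614 and 0.891 CPM to 3.18 and 3.01 CPM (1.91, SE 0.35, adjusted p = 0.0396), and was not called when any 1 of the 4 libraries was left out. In MDA-MB-231 T, RP11-46C24.7 alone rose (0.359% of all genes), from 2.05 and 1.47 to 5.09 and 5.24 CPM (1.57, SE 0.31, adjusted p = 0.0485), and was not called when any 1 of the 4 libraries was left out.

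In MDA-MB-231 P, 3 members were called (1.02%; 1.90% of all genes). At an unadjusted p under 0.05 the edgeR test gave 43 members higher and 12 lower there, and 13.6% of all genes in either direction. The share of all genes by direction at that p is not given, so no lean is read from these member counts. Both NPP libraries lay above both N libraries for 47.5% of members and 39.0% of all genes, and below them for 5.76% and 9.90%. THAP9-AS1 rose from 30.5 and 27.0 to 53.1 and 53.7 CPM (0.75, SE 0.17, adjusted p = 0.0388) and ZEB1-AS1 from 2.37 and 3.11 to 5.12 and 8.27 CPM (1.14, SE 0.24, adjusted p = 0.0279). RP5-940J5.9 fell from 54.9 and 49.2 to 27.5 and 24.1 CPM (-1.16, SE 0.14, adjusted p = 0.000559). GAPDH, on whose exons RP5-940J5.9 lies, had 4961 and 4537 CPM in N and 2740 and 2360 CPM in NPP in the same libraries. For all 3 members the treated libraries lay on one side of both controls. Without N replicate 2 or without NPP replicate 2, 0 rose and 2 fell, and 1 of the 3 calls was kept. Without N replicate 1, 3 rose and 1 fell, with 1 of the 3 kept, and without NPP replicate 1, 1 rose and 2 fell, with 2 kept.

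Translational efficiency (Te) was taken as the change in P less the change in T. In HPP, edgeR called 0 of 289 members in MCF10A, where it called 0.00% of all genes and DESeq2 called 0 members (0.00% of all genes higher and 1.01% lower). At an unadjusted p under 0.05 the edgeR test gave 0 higher and 4 lower (0.00% and 1.38%; 0.311% and 3.51% of all genes). In MDA-MB-231 the test called 1 of 295 (0.688% of all genes). That member was RP5-940J5.9, with -1.47 (adjusted p = 0.00160): its T libraries rose from 32.5 and 33.7 to 43.4 and 51.3 CPM while its P libraries fell from 54.9 and 49.2 to 29.7 and 33.2 CPM. GAPDH moved by 0.51 in T (adjusted p = 0.0334) and by -0.69 in P (adjusted p = 0.00481), in the same directions. Without N P replicate 1 the MDA-MB-231 count was 2.

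The changes of members were set beside those of the coding gene on the other strand. For HPP T, 233 pairs in MCF10A had a Pearson's r of 0.399 and a Spearman's rho of 0.339 across genes, and 235 pairs in MDA-MB-231 had 0.239 and 0.357. Among pairs in which the member shared at least 50% of its exon bases, r was 0.653 and rho 0.611 in MCF10A (60 pairs), and r was 0.182 and rho 0.577 in MDA-MB-231 (62 pairs). Pearson's r in MDA-MB-231 was lowered by 1 pair, RP11-1100L3.7 with ATG101. That member had 0 counts in both HPP T libraries and so a fitted change of no fixed size. Without this pair r was 0.351 and rho 0.359 over 234 pairs, and 0.431 and 0.587 over the 61 that share at least 50%. These are descriptions: genes are not independent replicates, both values of a pair come from the same libraries, and reads over shared bases are divided between the genes by estimate. Of 14 MCF10A members that rose and had such a pair, the partner rose for 5 and fell for 1, and of 10 that fell, the partner fell for 2. Over all 233 pairs of that line, 12 partners rose (5.15%) and 19 fell (8.15%). In MDA-MB-231 the partner rose for 6 and fell for 1 of 22, and fell for 1 of 5, while over all 235 pairs 20 partners rose (8.51%) and 17 fell (7.23%).

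Single pairs took each of these courses. PDK1 rose with AC093818.1 in MDA-MB-231 (1.51, adjusted p = 0.00128) and had 0.89 (adjusted p = 0.204) in MCF10A. DARS rose with DARS-AS1 in both lines, by 1.15 (adjusted p = 0.0103) and 0.52 (adjusted p = 0.0392), less than the 2.98 and 2.33 of the antisense RNA. SAP30, beside RP11-798M19.6, was not called in either line, at -0.44 (adjusted p = 0.485) and 0.26 (adjusted p = 0.379). VIM, the vimentin gene, rose with VIM-AS1 by 1.68 (adjusted p = 0.0398) and 0.79 (adjusted p = 0.00251). SLCO4A1 rose with RP11-93B14.9 in MCF10A (2.90, adjusted p = 0.000453), and MAP3K4 fell with RP3-428L16.2 (-2.04, adjusted p = 0.00558). NOP14 went the other way from NOP14-AS1 in MCF10A, with -1.02 (adjusted p = 0.0165).

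**Figure D5:**
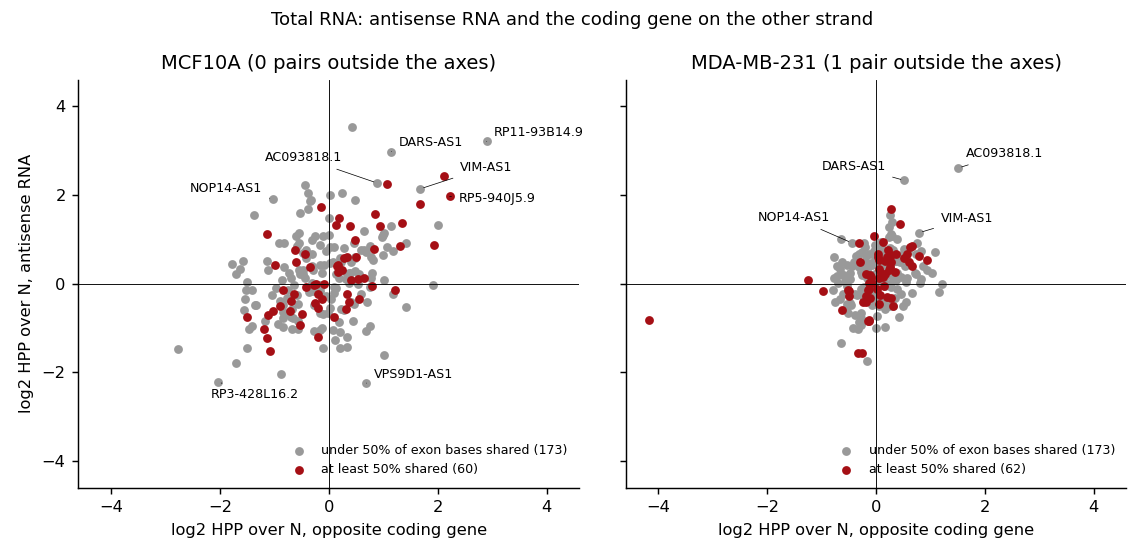
Log2 change in HPP T of each antisense RNA (vertical) against that of the coding gene on the other strand (horizontal), per line, with pairs sharing at least 50% of the member's exon bases in red (60 and 62) and the others in grey. RP11-93B14.9 and DARS-AS1 stand in the upper right of MCF10A, NOP14-AS1 in its upper left, and 1 pair lies outside the axes in MDA-MB-231.

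Most antisense RNAs on lists known from other settings were not members. Of 19 HOX cluster antisense RNAs 3 were members, of 8 linked to imprinting and chromatin 0, of 16 on a list for hypoxia and epithelial-mesenchymal transition 5, of 6 on a list for repair, cell cycle or growth 1, and of 4 small RNA hosts 1. HAGLR rose in MDA-MB-231 H P (1.01, adjusted p = 0.0234), HPP T (0.73, adjusted p = 0.0343) and HPP P (0.87, adjusted p = 0.0113), whereas HOTAIRM1 and HOXC13-AS were called in no comparison. Of the 5 on the hypoxia and transition list, DARS-AS1, ZEB1-AS1 and VIM-AS1 rose as given. VIM-AS1 had 0.956 and 0.889 CPM in N and 2.04 and 4.66 CPM in HPP in MCF10A T (2.14, SE 0.60, adjusted p = 0.0386) and 1.15 (adjusted p = 0.0451) in MDA-MB-231 T. ITGB2-AS1 was lower in P than in T of MDA-MB-231 (-1.80, adjusted p = 0.00526), and LOXL1-AS1 and FOXD2-AS1 were not called. TMEM161B-AS1, the small RNA host, was lower in P than in T of MDA-MB-231 (-0.77, adjusted p = 0.0497). Of 48 hypoxia target genes, only PDK1 had a member, AC093818.1, on its opposite strand.

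The difference between lines of the HPP effect was tested in a joint fit of all 32 libraries. All libraries of a line were deposited as one set of counts, apart from those of the other line. A difference between lines thus cannot be told apart from one between these sets. In T, 3 of 300 members differed (1.00%; 2.29% of all genes), and in P, 1 did (0.333%; 2.29% of all genes). RP3-428L16.2, antisense to the stress kinase gene MAP3K4, fell from 6.27 and 5.06 to 0.989 and 1.08 CPM in MCF10A T and had 1.54 and 0.927 CPM in N and 1.42 and 1.03 CPM in HPP in MDA-MB-231, where its libraries overlapped. The difference was 2.32 (SE 0.50, adjusted p = 0.0150). ATP6V0E2-AS1, beside a gene for a proton pump subunit, fell from 1.27 and 1.67 to 0.278 and 0.325 CPM in MCF10A T and had 5.61 and 6.65 CPM in N and 4.76 and 5.52 CPM in HPP in MDA-MB-231 (difference 1.90, SE 0.45, adjusted p = 0.0257). CTB-31O20.6 fell from 3.04 and 4.08 to 1.39 and 1.22 CPM in MCF10A T, and had 1.17 and 1.15 CPM in N and 1.96 and 2.29 CPM in HPP in MDA-MB-231 (difference 2.22, SE 0.43, adjusted p = 0.00761). With only the libraries compared in the fit, none of these calls was kept in T or in P. The T count was 1 without MCF10A N replicate 2, without MDA-MB-231 HPP replicate 1 or without MDA-MB-231 N replicate 2. In P the difference of ATP6V0E2-AS1 was 2.30 (adjusted p = 0.00663), and the count was 3, 5 and 2 without MCF10A HPP replicate 1, N replicate 2 and HPP replicate 2.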

How the data were processed

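Polysomal RNA-Seq was analysed in 32 libraries: 16 of MCF10A and 16 of MDA-MB-231, in 8 groups of 2 replicates per line, and 0 columns lacked a sample. The authors deposited expected counts per gene from RSEM, written as whole numbers. Their methods name STAR, RSEM, GRCh38 and GENCODE release 24, whereas the submitters' processing notes name STAR, RSEM, edgeR and GRCh37, and gene identifiers, not coordinates, were therefore used to join the files to GENCODE release 44. RSEM divides reads that fit several genes by estimate, and the library kit named in the study's methods (TruSeq RNA v2) does not mark the strand, which bears on every member that shares exon bases.

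Counts were tested with edgeR 4.0.16 (R 4.3.3): filterByExpr by group (minimum count 10), TMM, glmQLFit and glmQLFTest over genes of all classes, 1 fit per line and a joint fit, with Benjamini-Hochberg adjustment over all genes tested and a threshold of 0.05. A gene called higher or lower passed that threshold, and 289, 295 and 300 members were tested in MCF10A, MDA-MB-231 and the joint fit. Levels are CPM on the column sum. Log2 differences are the fitted ones and SE is the absolute log2 difference over the square root of F. A two-sided permutation test of 1 gene cannot fall under 0.333 in groups of this size. The procedure was tested on simulated data, and no result of that test is given here. The floor covers counting error only, whereas SE includes the spread between replicates that the fit estimated. Pair and promoter summaries used Python 3.11.15.

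The members and gene lists were chosen with earlier results of these data known. Members named were the 10 highest, up to 6 (10 for HPP) called per direction in each treatment comparison whose 2 treated libraries lay on one side of both controls, the 5 largest called per direction for P against T, Te and the line difference, members on the lists, members called together with an opposite-strand gene, and 3 on each side of the level limit. FGD5-AS1 and TUG1 in P against T, the remaining H calls and members set apart by line were named after their values were seen. Deviations of same-numbered MCF10A T libraries from their group means correlated at 0.273 to 0.738 in all 6 pairs of treatments. The numbers were therefore taken to pair those libraries, although the reported tests use no block. In MCF10A P 3 of 6 pairs exceeded 0.1, and in MDA-MB-231 4 of 6 in T and in P. The titles give T and P of a replicate a shared number, which pairs the fractions in both lines. Their deviations correlated at -0.175 to 0.274 in MCF10A and 0.0177 to 0.258 in MDA-MB-231 (4 pairs each). Alternatives were DESeq2 1.42.0, no filter on low counts, scaling by the library total, only the libraries compared, replicate blocks, leaving out each replicate and another definition of overlap.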

Additional observations from a re-analysis of the deposited data

Results flagged for a closer look

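The effect of HPP differed between the lines for the following members, by a test of the difference itself (edgeR, joint fit of both lines). The effects given for each line come from the separate fit of that line, so they do not subtract exactly to the difference. For RP3-428L16.2 in T the MDA-MB-231 effect exceeded that of MCF10A by 2.32 on the log2 scale (adjusted p = 0.0150), with -2.21 in MCF10A and 0.05 in MDA-MB-231. For ATP6V0E2-AS1 the difference was 1.90 in T (adjusted p = 0.0257), with -2.04 and -0.18, and 2.30 in P (adjusted p = 0.00663), with -2.31 and 0.07. For CTB-31O20.6 in T it was 2.22 (adjusted p = 0.00761), with -1.23 and 0.94. The MDA-MB-231 libraries of N and HPP overlapped for RP3-428L16.2 in T. With only the libraries compared in the fit, none of these differences passed the threshold, and each kept its direction. Line and deposited set of counts coincide and cannot be told apart, and what distinguishes the lines at these genes was not tested.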

How the results depend on the processing

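Counts of members called are given as the reported value and then under each alternative that moved it by more than 1.5 times. No named member reversed, and the cause of these shifts was not tested. The share of all genes called is not given for most of these fits, so no shift is read as particular to the members. In MCF10A P against T, DESeq2 also called 0.999% of all genes higher and 1.49% lower, where the edgeR test called 0.00%. DESeq2 gave 9 for 4 in MCF10A H T, 8 for 5 in H P, 3 for 1 in NPP P and 26 for 0 in P against T. In MDA-MB-231 it gave 9 for 5 in H T, 2 for 1 in NPP T and 7 for 3 in NPP P, and for the line difference 14 for 3 in T and 7 for 1 in P. With no filter beyond 1 read, MCF10A gave 10 in H T, 9 in H P, 9 in NPP P, 43 in P against T and 2 for Te in HPP. MDA-MB-231 gave 16 in H T, 5 in NPP T, 19 for 11 in H P, 12 in NPP P and 3 for Te in HPP, and the line difference gave 5 in T and 3 in P.

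With only the libraries compared in the fit, MCF10A gave 15 in H T, 18 for 32 in HPP T, 0 in H P, 15 for 40 in HPP P and 0 in NPP P. MDA-MB-231 gave 2 in H T, 1 of them among the 5 reported, 0 in NPP T and 6 in H P. The line difference gave 1 in T, which was not among the 3 reported, and 0 in P. Scaling by the library total (chosen after seeing the data for these counts) gave 0 in MCF10A NPP P, 2 in MCF10A P against T, 0 in MDA-MB-231 NPP T, 9 in MDA-MB-231 NPP P and 4 for the line difference in P. It moved the median of all genes by -0.27 in MCF10A and -0.11 in MDA-MB-231 for P against T, where the members' medians became -0.82 and -0.58.

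A replicate block over all libraries of a line gave 2 in MCF10A H T and 3 in H P, 11 in MDA-MB-231 H T, 2 in NPP T, 21 in H P and 8 in NPP P, and for the line difference 8 in T and 3 in P. A replicate block within each fraction, chosen after seeing the data, gave 8 in MCF10A H T, 58 in HPP T, 4 in NPP P and 29 in P against T, and in MDA-MB-231 10 in H T, 2 in NPP T, 19 in H P and 8 in NPP P. Other counts under a block stayed within 1.5 times. Between treatments, correlations of same-numbered libraries exceeded 0.1 in all pairs only in MCF10A T, and in some pairs of the other sets. The labels do not say whether a replicate number marks cultures handled together across treatments. A block on the number shared by T and P gave 0 in MCF10A and 113 in MDA-MB-231 for P against T, and took 3 of the 11 named P against T and Te calls below the threshold.

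Leaving out each library in turn gave 0 to 1 in MCF10A H T, 2 to 19 in HPP T, 0 to 4 in H P, 9 to 30 in HPP P and 0 in NPP P. For MDA-MB-231 it gave 2 to 3 in H T, 9 to 19 in HPP T, 0 to 1 in NPP T, 4 to 11 in H P, 22 to 31 in HPP P, 2 to 4 in NPP P, 42 to 60 in P against T and 1 to 2 for 1 for Te in HPP. For the line difference they were 1 to 3 in T and 1 to 5 in P. Rises and falls in these fits were not set against the share of all genes called, so no direction is read from them. With a library left out, an arm holds 1 library, which is assumed to vary like the other groups. Of 1176 alternative values of 58 named members, 854 kept their side of the threshold and 322 lost it, 251 of these when a library was left out. With the pairs split by kind of overlap, Pearson's r in HPP T was 0.374 over 220 exon-sharing pairs and 0.669 over 13 body-only pairs in MCF10A, and 0.235 over 223 and 0.394 over 12 in MDA-MB-231. Leaving out the pair of RP11-1100L3.7, a choice made after seeing the data, gave 0.349 over 222. At 1 CPM a library holds 18.3 to 46.0 counts, which limits what can be called for the lowest members.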
